A study of Rattus norvegicus with 6 samples.

Results

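The genes described are the carboxylesterases of families 1, 2 and 5 in rat liver. Of 10 listed symbols, 9 had at least 1 probe on the array: Ces2c, Ces2h and Ces2j of family 2, Ces1a, Ces1c, Ces1d, Ces1e and Ces1f of family 1, and Ces5a of family 5. The tenth, Ces2a, is a transcribed pseudogene in the gene table used for names, and no probe matched its accession. Members were found by matching the transcript accession of each probe to those symbols, which gave 12 probes on 27 spots of each array. All 9 matched genes passed the filter on dim probes and stand among 16389 tested genes. Only Ces5a passed it through the control group alone.

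Male rats of the Wistar Hannover stock RCCHan:WIST were bought at 4 weeks of age and held for 1 week before dosing. The control group had corn oil, the vehicle, by gavage, and the PCN group had the same route with pregnenolone-16α-carbonitrile (PCN), dosed for 7 days with 100 mg/kg each day. Both groups carry no genetic change that the labels name. Each group has 3 livers, labelled as biological replicates, each on 1 array that measured Cy3-labelled total RNA. PCN, a man-made steroid, is a ligand of the rat pregnane X receptor (PXR), a nuclear receptor that senses foreign compounds and bile acids.

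Carboxylesterases are serine hydrolases of the endoplasmic reticulum that split esters, amides and thioesters, among them ester prodrugs, pyrethroids, acylglycerols and acylcarnitines. Family 1 enzymes prefer substrates with a large acyl group and a small alcohol, and family 2 enzymes the reverse. Liver holds both families at high activity, and some rodent members lack the retention signal of the endoplasmic reticulum and are secreted into plasma.

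Promoter sequence is shown first for the members that changed most with PCN and for the family 2 member that did not pass the test. The stretches run from 150 to 51 bases before the transcript start that RefSeq's promoter table uses, all on the plus strand of build GRCr8. Capitals mark the longest run shared by the Ces2c and Ces2j promoters (AAATTCCTGCCTGGGC) and the nuclear receptor half-site AGTTCA, on either strand.
Ces2c: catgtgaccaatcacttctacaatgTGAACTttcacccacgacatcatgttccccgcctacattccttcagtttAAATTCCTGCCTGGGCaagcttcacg
Ces2j: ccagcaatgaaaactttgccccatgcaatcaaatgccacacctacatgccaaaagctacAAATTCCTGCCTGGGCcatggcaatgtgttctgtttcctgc
Ces2h: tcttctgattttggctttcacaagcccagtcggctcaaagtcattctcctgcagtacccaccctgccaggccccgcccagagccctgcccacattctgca
Ces1a: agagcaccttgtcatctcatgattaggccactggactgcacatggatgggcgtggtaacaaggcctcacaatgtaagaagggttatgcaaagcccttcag
Ces5a: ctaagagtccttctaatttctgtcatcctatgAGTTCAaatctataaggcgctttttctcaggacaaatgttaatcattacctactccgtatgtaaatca
The Ces2c stretch is chr1:270377051-270377150, the Ces2j stretch chr19:304919-305018 and the Ces2h stretch chr19:49884014-49884113. The Ces1a stretch is chr19:30132528-30132627 and the Ces5a stretch chr19:11475168-11475267. For Ces1c, Ces2j and Ces5a the start in the promoter table lies inside the span of the gene in the gene table, so the letters shown are upstream of 1 annotated start and not of every one. For Ces2j and Ces1a that start is itself an ATG.

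The comparison of PCN with corn oil addresses which liver transcripts change under a PXR activator. Ces2c and Ces2j transcripts rose, by 8.46-fold (95% interval 6.38 to 11.2) and 8.05-fold (5.87 to 11.1) with 3 arrays per group. Ces1a fell, by 2.25-fold (1.89 to 2.68). Ces5a was also called lower, but it passed the filter through the control group alone and read near background on the PCN arrays. Its call and log2 fold change are described apart with their limits, and its fold is not set beside those above. Ces2h, Ces1c, Ces1d, Ces1e and Ces1f did not pass the test. Over all tested genes, 19.9% were called, 4.37% higher and 15.5% lower, and the 9 members had 2 calls higher and 2 lower. A call is a Benjamini-Hochberg adjusted p under 0.05 in limma over all 16389 genes.

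Set side by side, family 2 and families 1 and 5 took separate ranges of log2 fold change, PCN minus control. The 3 family 2 members lay between 0.48 and 3.08 with a median of 3.01, and the 6 members of families 1 and 5 between -1.17 and 0.01 with a median of -0.24. The median of all tested genes was -0.06. The 2 family 2 calls were both higher. The lower calls in families 1 and 5 were Ces1a and Ces5a, and with a filter to probes well above background on all 6 arrays, where Ces5a was not tested, 1 lower call was left. In 6 of 9 members the control and PCN arrays did not overlap, 3 with PCN above and 3, Ces5a among them, with PCN below, against 41.4% of all tested genes (14.7% above and 26.7% below). With median scaling the median of all genes moved to 0.14 and with spike-in scaling to -0.34, and under the 19 alternatives tried the family 2 median stayed between 2.73 and 3.22 and that of families 1 and 5 between -0.52 and -0.04. The share of calls that were lower was 78.1%, but 65.9% after quantile normalization, 41.0% with median scaling, 96.9% with spike-in scaling and 64.4% with normexp.

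**Figure D1:**
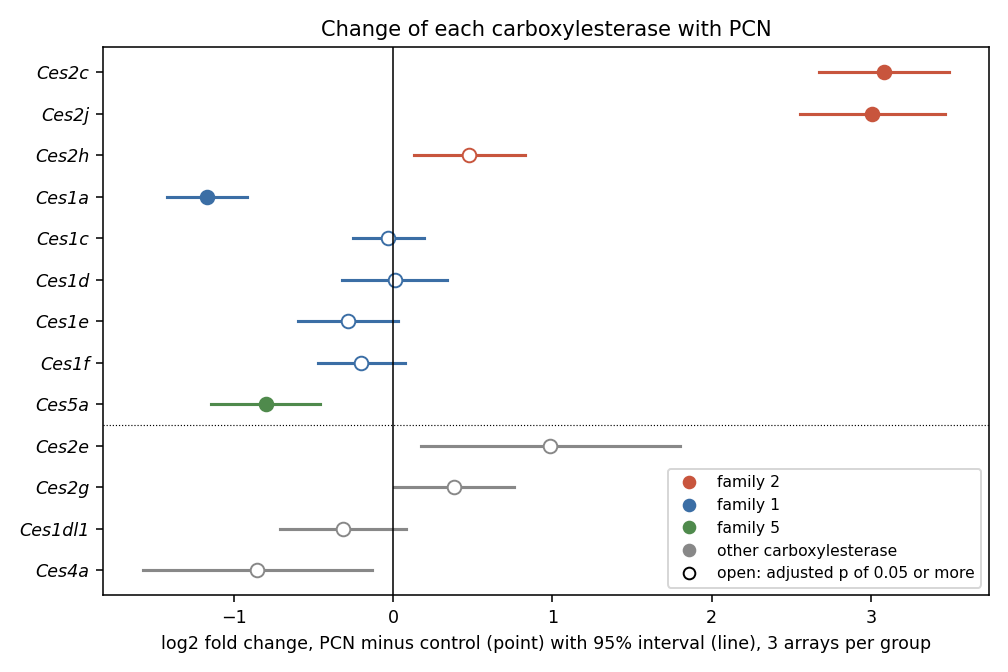
Log2 fold change, PCN minus control, of each member and of 4 other carboxylesterases (x axis), with the 95% interval of the limma fit as a line. Filled points passed an adjusted p of 0.05: Ces2c at 3.08 and Ces2j at 3.01 on the right, Ces1a at -1.17 and Ces5a at -0.80 on the left. Ces5a read near background on the PCN arrays.

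Levels below are multiples of the array's 75th percentile of processed signal over non-control spots, so 1 is the signal of that percentile. Ces2c, which encodes an acylcarnitine hydrolase of the endoplasmic reticulum, stood at 0.452, 0.507 and 0.371 on control arrays 1 to 3 and at 3.21, 3.59 and 4.47 on PCN arrays 1 to 3. Every PCN array lay above every control array, with PCN 3 the highest of the 6 and control 3 the lowest. Its log2 fold change was 3.08 ± 0.17 (SE, n = 3 per group; adjusted p = 0.000268, limma). Only 0.769% of tested genes were both called and at least 2-fold higher, and Ces2c ranked 20 among all rises. The 2 spots of its probe differed on each array by a coefficient of variation of 5.78% or less.

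Ces2j, a further family 2 esterase, stood at 1.28, 1.55 and 0.920 on the control arrays and at 9.36, 9.92 and 10.3 on the PCN arrays. The PCN arrays lay close together (mean 9.84 ± 0.452, SD, n = 3) while the control arrays spread more widely in proportion (1.25 ± 0.314). The log2 fold change was 3.01 ± 0.19 (SE; adjusted p = 0.000356, limma), which ranked 21 among all rises, next after Ces2c. Its probe has 1 spot per array, so no spot-to-spot spread can be given.

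Ces2h, the remaining family 2 member with a probe, stood at 0.860, 0.649 and 0.642 on the control arrays and at 1.08, 0.929 and 0.965 on the PCN arrays. All PCN arrays were above all control arrays, but control 1 lay much nearer to them than controls 2 and 3 did. The log2 fold change of 0.48 (95% interval 0.13 to 0.83) missed the threshold (adjusted p = 0.0638, limma). Without control 1 it was 0.62 with an adjusted p of 0.0338. The interval of Ces2h ended well below the lower bounds of Ces2c (2.67) and Ces2j (2.55).

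**Figure D2:**
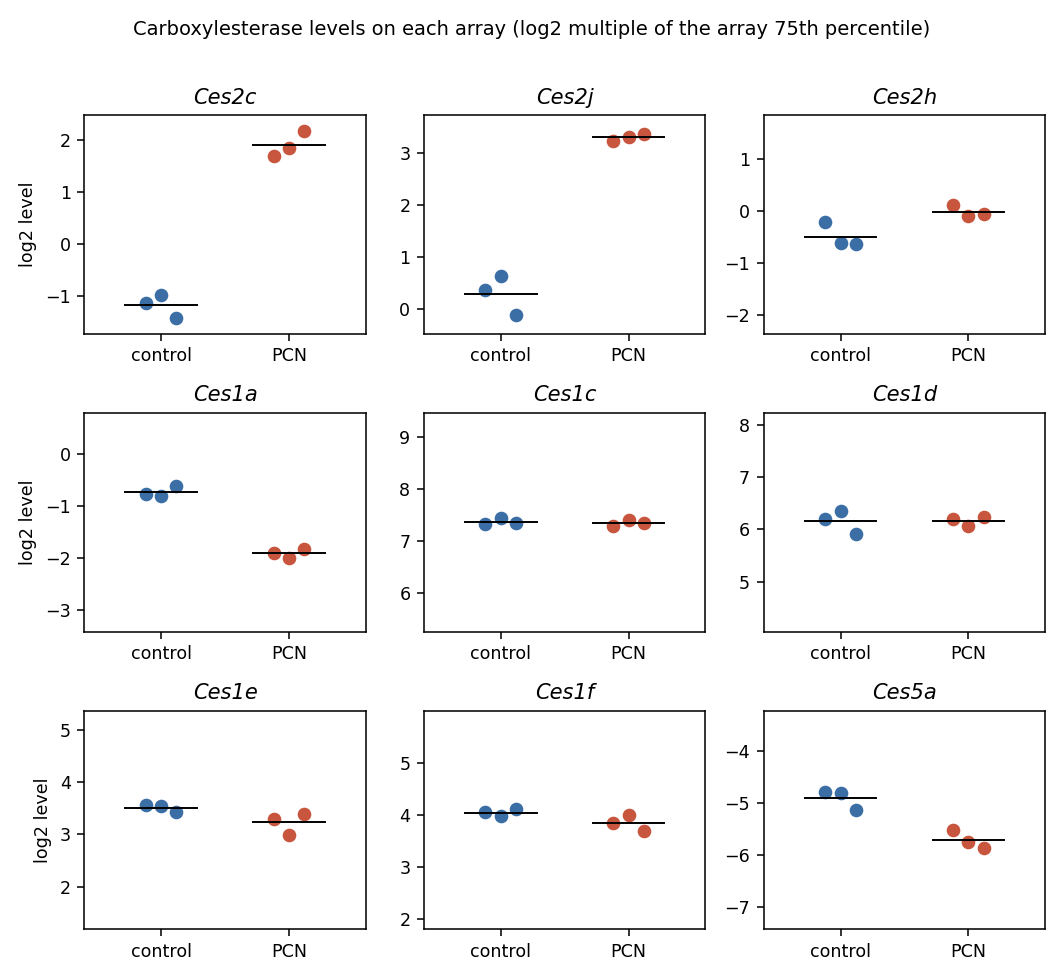
Level of each member on each array (y axis, log2 of the multiple of the array's 75th percentile), control arrays 1 to 3 on the left and PCN arrays 1 to 3 on the right of each panel, with the group mean as a line. Every panel spans the same number of log2 units, and control and PCN arrays are farthest apart in Ces2c and Ces2j.

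Among family 1, Ces1a was the member that changed. It stood at 0.588, 0.568 and 0.648 on the control arrays and at 0.268, 0.249 and 0.283 on the PCN arrays. The groups were far apart for their spread (0.601 ± 0.0415 and 0.267 ± 0.0167, SD, n = 3 each). The probe used has 1 spot per array, so no spot-to-spot spread can be given. The log2 fold change was -1.17 ± 0.11 (SE; adjusted p = 0.00108, limma). A fall of at least 2-fold with a call was less rare than such a rise, at 7.25% of tested genes, and Ces1a ranked 1005 among all falls. A second Ces1a probe stayed near background on all 6 arrays and was not tested.

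Ces1c, which encodes a carboxylesterase secreted into plasma, stood at 160, 173 and 161 on the control arrays and at 155, 168 and 162 on the PCN arrays. The groups overlapped, and the log2 fold change was -0.03 (95% interval -0.26 to 0.20; adjusted p = 0.856, limma). This probe has 10 spots per array, of which 8 to 10 were kept, with a coefficient of variation between 2.25% and 4.48%. A second probe gave -0.11 (adjusted p = 0.439).

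Ces1d, a hydrolase that acts on stored triacylglycerol as well as on drugs, stood at 73.7, 82.1 and 60.4 on the control arrays and at 73.5, 66.8 and 75.9 on the PCN arrays. The PCN values all lay inside the control range. The log2 fold change was 0.01 (95% interval -0.32 to 0.34; adjusted p = 0.973, limma), and its sign changed between scalings.

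Ces1e encodes egasyn, which holds the enzyme beta-glucuronidase in the endoplasmic reticulum. It stood at 11.8, 11.6 and 10.8 on the control arrays and at 9.89, 7.95 and 10.5 on the PCN arrays. All PCN arrays were below all control arrays, PCN 3 only just, and PCN 2 was the lowest. The probe used has 1 spot per array. The log2 fold change was -0.28 (95% interval -0.60 to 0.03; adjusted p = 0.184, limma), and with spike-in scaling it was -0.56 with an adjusted p of 0.0139. A second probe of the gene disagreed, with levels of 1.29, 1.28 and 1.29 on the control arrays and 1.47, 1.08 and 1.32 on the PCN arrays. PCN 2 was the lowest array for both probes, but with the second probe PCN 1 and PCN 3 exceeded every control array (adjusted p = 0.987, limma).

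Ces1f, a further family 1 hydrolase, stood at 16.5, 15.7 and 17.3 on the control arrays and at 14.3, 16.0 and 12.9 on the PCN arrays. PCN 2 lay inside the control range and the other PCN arrays below it. The log2 fold change was -0.20 (95% interval -0.48 to 0.07; adjusted p = 0.269, limma). For Ces1c, Ces1d, Ces1e and Ces1f the intervals exclude a change of the size seen in Ces1a, and those of Ces1c and Ces1d also exclude a change beyond about 1.27-fold either way.

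Ces5a, the family 5 member, whose product is known as cauxin and is secreted, was the only tested member not well above background on all 6 arrays. It stood at 0.0361, 0.0357 and 0.0285 on the control arrays and at 0.0217, 0.0186 and 0.0172 on the PCN arrays. The groups did not overlap, and the log2 fold change was -0.80 ± 0.14 (SE; adjusted p = 0.0116, limma). It was well above background on 3 control arrays and 2 PCN arrays, and on those 2 PCN arrays only 1 of its 2 spots was. The spots of 1 array differed by a coefficient of variation of up to 57.4%. On control 2, 1 spot at a processed signal of 150 bore an outlier mark and was left out, and the kept spot read 27.0. With marked spots kept the log2 fold change was -1.21 (adjusted p = 0.0700), and with normexp background correction it was -0.03 (adjusted p = 0.877), so the call rests on how a dim signal was treated.

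**Figure D3:**
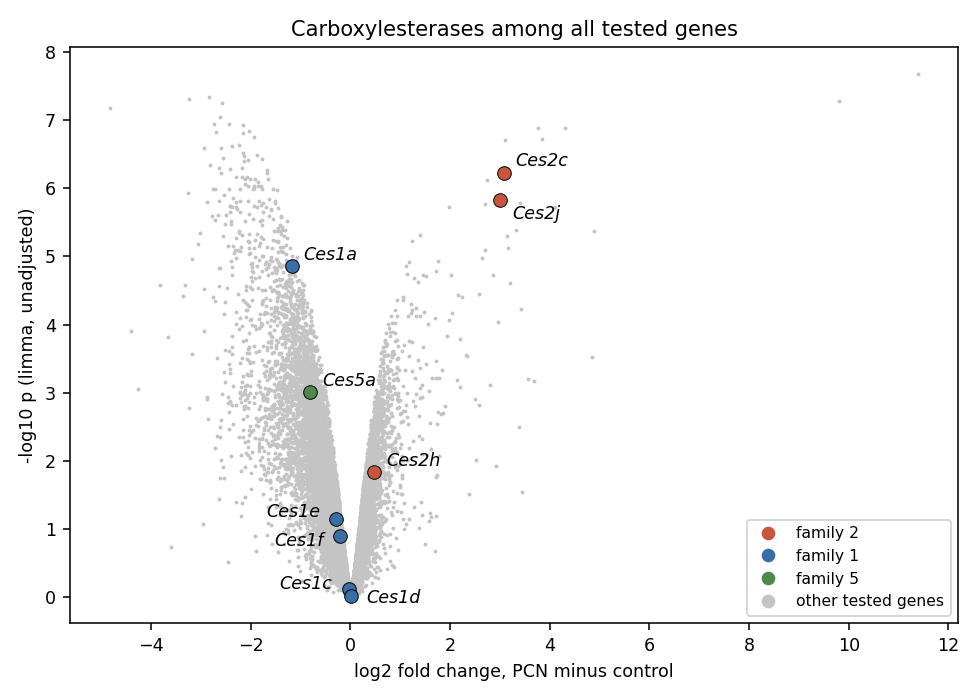
Each grey point is 1 of 16389 tested genes, with log2 fold change, PCN minus control, on the x axis and the negative log10 of the unadjusted limma p on the y axis. Members are coloured by family: Ces2c and Ces2j lie among the few genes past 3 on the x axis, and most family 1 members lie near 0.

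Ces2c and Ces2j lie on different chromosomes of GRCr8, 1 and 19, each near other family 2 genes and pseudogenes. Neighbours were read among protein-coding genes and carboxylesterase symbols only. Ces1f, Ces1e, Ces1d, Ces1c and Ces1a follow one another on chromosome 19 with no other protein-coding gene of the table between them. Ces1a, the one that fell, stands at the end beside Slc6a2. Ces2h neighbours Ces3a on the same chromosome. The probes' own letters were not used here, so how far a probe also pairs with the transcript of a close paralog or pseudogene was not tested.

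Over the 250 bases before each start, the Ces2c and Ces2j promoters were the most alike of 36 member pairs, with 60.3% identity. The next pair was Ces1c and Ces1d, with 58.6%, and the median pair had 45.9%. Ces2h, the other family 2 promoter, had 48.8% identity to Ces2c and 41.7% to Ces2j. The shared 16-base run printed above, AAATTCCTGCCTGGGC, begins 76 bases before the Ces2c start and 91 before the Ces2j start. Searched on both strands, it was found in 5 of 33469 promoters (0.0149%), which are those of Ces2c, Ces2j, Ces2i, Ces2b and Ces2g. The run was picked because Ces2c and Ces2j hold it, so its presence there is a description, and Ces2i, Ces2b and Ces2g are named for holding it. Of these, Ces2g was tested (log2 fold change 0.38, adjusted p = 0.144, limma), Ces2b stayed near background on all 6 arrays, and Ces2i was not analysed here. The promoters of Ces2h, Ces2, Ces2e, Ces2f and Ces2el1, also of family 2, were searched and lack the run.

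The half-site AGTTCA, in either orientation, stood in the promoters of Ces1a, Ces1c, Ces2c and Ces5a, 4 of 9 members, against 12.2% of all promoters of this length. Of these, Ces2c rose, Ces1a fell, Ces5a was called lower near background, and Ces1c did not pass the test. The half-site AGGTCA was in 0 of 9 member promoters and in 14.1% of all. Neither half-site formed a direct repeat with a spacer of 3 or 4 bases (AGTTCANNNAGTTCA, AGTTCANNNNAGTTCA, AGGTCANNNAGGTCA, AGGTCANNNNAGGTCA) or an everted repeat with a spacer of 6 bases (TGAACTNNNNNNAGTTCA, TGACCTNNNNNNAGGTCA) in a member's window. These motifs were searched on both strands, and a half-site also matches inside the repeats built from it. A match is no measure of binding, and the window covers only the bases next to the start.

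**Figure D4:**
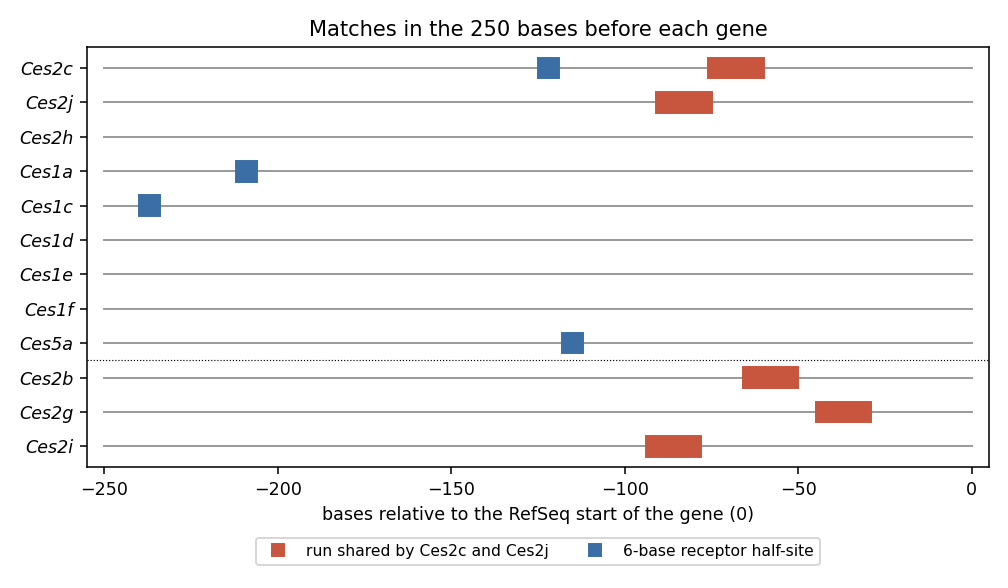
Positions of the 16-base run shared by Ces2c and Ces2j (red) and of the 6-base half-site AGTTCA (blue) in the 250 bases before the RefSeq start of each member and of 3 other family 2 genes (x axis, bases relative to the start). The run appears in the family 2 promoters other than Ces2h that are drawn, and the half-site in those of Ces2c, Ces1a, Ces1c and Ces5a. The 3 other family 2 genes are drawn because they hold the run. Ces2, Ces2e, Ces2f and Ces2el1 lack it and are not drawn.

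The gene table holds 13 other carboxylesterase symbols, among them the pseudogenes Ces2c-ps1, Ces2c-ps2 and Ces2e-ps1. Of the 13, 5 had a probe and 4 were tested, with 0 called by limma, against 19.9% of all genes. In 2 of the 4 the groups did not overlap, against 41.4% of all genes. Ces2e, another family 2 esterase, was at 0.99 ± 0.34 on the log2 scale (SE; adjusted p = 0.0893), and without control 1 at 0.56 (adjusted p = 0.0430). Ces4a, of family 4, was at -0.85 (adjusted p = 0.0940), and without PCN 3 at -1.14 (adjusted p = 0.0316) and without PCN 2 at -0.51 (0.101). With median scaling Ces2e (1.19, adjusted p = 0.0389) and Ces2g (0.59, 0.0340) were called higher. Ces2g was also called with quantile normalization (0.56, adjusted p = 0.0450) and without PCN 3 (0.53, 0.0469). With spike-in scaling Ces4a (-1.13, adjusted p = 0.00874) and Ces1dl1 (-0.59, 0.0354) were called lower. In the main limma fit the unadjusted p values were 0.0241 for Ces2e, 0.0261 for Ces4a, 0.0494 for Ces2g and 0.0989 for Ces1dl1.

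Of 38 other esterases and lipases listed for the liver, 30 were tested, and 3 rose, 5 fell and 22 did not pass the test. Their median log2 fold change was 0.02. Ddhd1, among those that fell and named after its values were seen, was well above background on 3 control arrays but 1 PCN array. It passed the filter through the control group alone. With a filter to probes well above background on all 6 arrays, 4 of the list were called higher and 4 lower. The split turned with the scaling, to 9 higher and 3 lower with median scaling and 0 higher and 11 lower with spike-in scaling. Changes of single genes are on the log2 scale. Abhd2, a lipid hydrolase, fell by 1.25 ± 0.19 (SE; adjusted p = 0.00728, limma). Bche, the plasma butyrylcholinesterase, fell by 0.94 ± 0.15 (adjusted p = 0.00718). Aadac, an arylacetamide deacetylase that shares drug substrates with the carboxylesterases, fell by 0.77 ± 0.16 (adjusted p = 0.0175). Abhd4, which acts on N-acyl phospholipids, rose by 0.67 ± 0.13 (adjusted p = 0.0159). Of the 19 alternatives, Abhd2 kept its call in 19, Bche in 18, Aadac in 16 and Abhd4 in 15. Bche was at -0.33 with normexp (adjusted p = 0.0534), Abhd4 at 0.39 with spike-in scaling (adjusted p = 0.148), and both Aadac and Abhd4 missed the threshold without control 1 (adjusted p of 0.0585 and 0.0504) or control 3 (0.0567 and 0.0586). The called share, 8 of 30, stands beside 19.9% over all genes, and the largest rise among these 30 was far smaller than those of Ces2c and Ces2j.

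The partner of egasyn, Gusb (beta-glucuronidase), had a log2 fold change of -0.12 (adjusted p = 0.629, limma), and 0.09 with median scaling. The list of Gusb also holds the receptors that return proteins to the endoplasmic reticulum. Of its 3 tested genes limma called 0, against 19.9% of all genes, and 0 had an unadjusted p under 0.05. Kdelr2, one of these receptors, was at -0.13 (adjusted p = 0.615), or 0.07 with median scaling. Among 10 tested receptors and factors that act on carboxylesterase genes, 1 rose and 1 fell, a share near the 19.9% over all genes. On the log2 scale Hnf4a, a hepatocyte transcription factor, rose by 0.63 ± 0.13 (SE; adjusted p = 0.0160, limma). The glucocorticoid receptor gene Nr3c1 fell by 0.55 ± 0.12 (adjusted p = 0.0235). Hnf4a kept its call in 15 of 19 alternatives, not without control 3 (adjusted p = 0.0565) or with spike-in scaling (0.0993). Nr3c1 kept it in 11, not with median scaling (adjusted p = 0.0881) nor without control 2 (0.0750), control 3 (0.0786), PCN 1 (0.0675) or PCN 3 (0.0627), and was at -0.27 with the mean of its probes (0.149). Nr1i2, which encodes PXR itself, was at -0.10 (adjusted p = 0.561), or 0.11 with median scaling, and Nr1i3, which encodes the constitutive androstane receptor, was at -0.33 ± 0.38 (SE; adjusted p = 0.580).

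As a reference for the size of induction, 5 of 5 well known PCN-responsive genes rose, against 4.37% of all tested genes. They were chosen as known responders, with earlier results of these data known, so that count is no test. Cyp3a23-3a1, the inducible P450 of the 3A subfamily, rose by 4.31 ± 0.19 on the log2 scale (SE; adjusted p = 0.000169, limma), or 19.8-fold. On the same scale the uptake transporter Slco1a4 rose by 3.41 ± 0.22 (10.6-fold), and the P450 Cyp3a9 by 3.21 ± 0.32 (9.27-fold). The 95% intervals of Ces2c (2.67 to 3.49) and Ces2j (2.55 to 3.47) contain the estimates for Slco1a4 and Cyp3a9 but not that of Cyp3a23-3a1.

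Among 10007 tested genes with a symbol outside the carboxylesterase family, the profile most like that of Ces2c over the 6 arrays was that of Tmem97, a membrane protein of sterol handling (Pearson r of log2 levels 0.9998). Tns3, a focal adhesion protein (0.9998), and Polr3e, a subunit of RNA polymerase III (0.999), came next. Their log2 fold changes were 0.75, 0.46 and 0.19 (that of Polr3e was -0.09 with spike-in scaling), so the likeness lies in the order and spacing of the arrays and not in size. The genes most like Ces1a were Cdc20, a mitotic activator of the anaphase-promoting complex (r = 0.998), the microtubule protein Map7d1 (0.995) and the potassium channel Kcnk2 (0.995). Cdc20 and Map7d1 were at -0.87 and -0.89. Kcnk2 did not count as well above background in any PCN liver, so it passed the filter through the control group alone. Its correlation rests on values at background in the PCN group. With the main processing the size of its change cannot be given. Set against the lowest signal of any probe well above background on each PCN array, its fall was 4.04-fold. That is not a sure lower bound, since a level of 0.0172 (Ces5a on PCN 3) was not well above background. With normexp the log2 fold change of Kcnk2 was -0.19 (adjusted p = 0.383, limma). With 6 arrays in 2 groups, 270 genes reached an r above 0.95 with Ces2c and 352 with Ces1a, and all these points share their arrays.

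**Figure D5:**
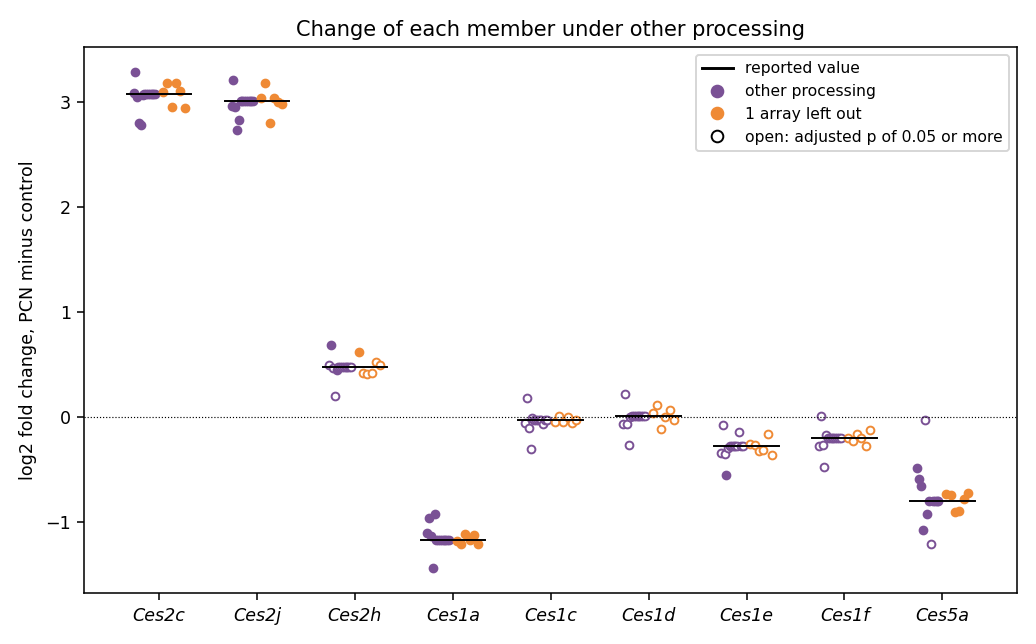
Log2 fold change, PCN minus control, of each member (y axis) under other processing (purple) and with 1 array left out (orange), beside the reported value (line). Open points had an adjusted p of 0.05 or more: Ces2c, Ces2j and Ces1a have none, Ces5a has 2, at -0.03 and -1.21, and Ces2h has 4 filled points, at 0.44 to 0.68.

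The array's 75th percentile ran from 633 to 758 in the control group and from 488 to 627 in the PCN group. Control arrays lay on 1 slide with 1 scan and PCN arrays on another, so a slide or scan effect and a PCN effect cannot be told apart. In whole liver, fewer cells of a type and less RNA per cell cannot be told apart either. The 8 hepatocyte markers had 0 calls in limma (0 with an unadjusted p under 0.05), with a summed level of 2718 to 2897 on control and 2409 to 3111 on PCN arrays. The 8 Kupffer cell markers had 0 calls in limma (3 with an unadjusted p under 0.05), all with log2 fold changes below 0, and a summed level of 37.0 to 44.4 on control and 25.6 to 39.1 on PCN arrays. Of the stellate cell markers 1 of 8 rose and 2 fell, and their summed level was 5.46 to 6.15 on control and 4.00 to 4.87 on PCN arrays. T cell markers had 2 of 4 lower, endothelial markers 1 of 5, neutrophil markers 1 of 3 and exocrine pancreas markers the 1 tested. These counts stand beside 19.9% called over all tested genes, 4.37% higher and 15.5% lower. Of all 16389 genes, 5653 had an unadjusted limma p under 0.05. Lck, one of the T cell genes called lower, was well above background on 3 control arrays but 1 PCN array, so it passed the filter through the control group alone. The summed levels on control and PCN arrays were 0.543 to 0.679 and 0.396 to 0.490 for T cells, 23.9 to 26.4 and 22.6 to 26.0 for endothelium, and 0.666 to 1.30 and 0.451 to 0.857 for neutrophils. The sums of the 2 groups did not overlap for stellate cells and T cells, with PCN below. Nor did they overlap for cholangiocytes, with PCN above (0.360 to 0.476 on control and 0.5002 to 0.555 on PCN arrays). The 1 pancreatic gene did not overlap either, with PCN below (0.147 to 0.172 and 0.0795 to 0.119). The sums were 243 to 271 and 192 to 244 for red blood cells. Cholangiocyte and red blood cell markers had 0 of 3 calls each in limma (1 and 0 with an unadjusted p under 0.05). A sum follows its brightest genes. Epcam, the brightest cholangiocyte marker, had a log2 fold change of 0.60, while Krt7 was at 0.19 and Krt19 at -0.41. Among stellate markers Lrat had the largest change, -1.33, and 7 of 8 were below 0. These 4 genes were named after their values were seen. The T cell genes Cd3e and Cd2 and the pancreatic genes Cpa1, Prss1, Cela1, Amy2a3 and Cel did not pass the filter on dim probes. The part of these shifts in the carboxylesterase values was not tested.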

How the data were processed

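The deposited scanner files hold intensity values. Per the file headers, the scanner software was Agilent's Feature Extraction 10.7.3.1, and the processed signal has the background of its own array subtracted, with no scaling across arrays. All 6 arrays, 3 control and 3 PCN, were analysed, and their number limits the precision. The authors also deposited a table of linear ratio values, used as an alternative. The files name build rn4. Probes were named by unversioned accession through a RefSeq table of assembly GRCr8, and 18004 of 30367 non-control probes matched 1 symbol.

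Levels are log2 of the processed signal over the array's 75th percentile, taken across non-control spots. Control spots and outlier-marked spots were left out, and spots of 1 probe were averaged. Tested probes (18329) were those marked well above background throughout the 3 arrays of either group, and the brightest tested probe stood for a gene (16389 genes). limma 3.58.1 in R 4.3.3 (lmFit and eBayes, no covariate, two-sided) compared the groups, with Benjamini-Hochberg adjustment over all genes and a threshold of 0.05. The code was tested on simulated data.

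Promoter windows came from RefSeq's promoter table and were aligned with Biopython 1.88. The members and lists were chosen with earlier results of these data known. Genes outside the family were named as up to 4 called members of each list with the largest change (up to 2 where none was called), Nr1i2, Nr1i3, Gusb and the 3 genes most correlated with Ces2c and with Ces1a. Any other gene is said to be named after its value or sequence was seen.

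Alternatives were quantile, median, cyclic loess and spike-in scaling, normexp on the median signal (offset 50; the files used here hold no mean signal), the deposited table, other filters on dim and marked spots, other probe rules, trend and robust variances, a replicate block, and each array left out. Same-numbered arrays of both groups deviated from their group means with correlations of -0.10, -0.03 and -0.05.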

Additional observations from a re-analysis of the deposited data

How the results depend on the processing

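Ces2c, Ces2j and Ces1a kept their call under all 19 alternatives, with log2 fold changes of 2.79 to 3.29, 2.73 to 3.22 and -1.45 to -0.92. Ces5a kept it in 16 of 18, and lost it with normexp (-0.029) and with marked spots kept (-1.21), which left 1 member called lower in each; with a filter to probes well above background on all 6 arrays it was not tested, which also left 1. Ces2h passed with median scaling (0.68), normexp (0.44), trend and robust variances (0.48) and without control 1 (0.62), and Ces1e with spike-in scaling (-0.56). The sign of uncalled values turned for Ces1d (quantile -0.068, cyclic loess -0.070, spike-in -0.27, normexp -0.00075), and with median scaling for Ces1c (0.18), Ces1f (0.0054), Nr1i2 (0.11), Gusb (0.087), Kdelr2 (0.073) and the second Ces1c probe (0.092), and with spike-in scaling for Polr3e (-0.085). The second Ces1e probe turned to 0.017 with quantile normalization, 0.20 with median scaling and 0.12 without PCN 2. With 1 array left out, Ces1d ran from -0.11 to 0.11, Ces1c from -0.059 to 0.0044, Kdelr2 from -0.24 to 0.019 and Ces2h from 0.41 to 0.62.

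Over all tested genes, 3263 calls (716 higher, 2547 lower) became 5101 with spike-in scaling (156 higher, 4945 lower) and 1967 with no filter on dim probes (283 higher, 1684 lower). Median scaling gave 2686 higher and normexp 1432 lower. With 1 array left out the calls numbered 2023 to 2592, 291 to 543 of them higher and 1715 to 2138 lower. The other lists, with 10 calls, had 17 with median scaling, 3 with no filter, and 4 to 9 with 1 array left out (4 without control 3). With a replicate block, 2067 genes were called, 306 of them higher, and 6 list members, but the same 4 carboxylesterases. In their deviations from the group mean, 0 of 6 arrays correlated best with the array of their own number. With 3 arrays per group this cannot tell whether the numbers pair the samples. The cause of each of these changes was not tested. Signal near background limits Ces5a, and 3 arrays per group limit the rest.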

Other observations

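Ces2e, a family 2 esterase that lies near Ces2a on chromosome 19 of GRCr8, was spread more widely among controls than any member. It stood at 0.506, 1.20 and 1.24 times the 75th percentile on control arrays 1 to 3 and at 1.82, 1.65 and 1.95 on PCN arrays 1 to 3. All PCN arrays lay above all control arrays, and control 1 was the dimmest of the 6, while Ces2h and Ces2j did not have their lowest control value there. Its change was 0.99 on the log2 scale with all arrays (limma adjusted p = 0.0893), 0.56 without control 1 (adjusted p = 0.0430) and 1.19 with median scaling (adjusted p = 0.0389). Over the 19 alternatives it ran from 0.56 to 1.21, with adjusted p from 0.0389 to 0.190.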
